A study of Mus musculus with 6 samples.

Results

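Matrix metalloproteinases (MMPs) and their tissue inhibitors (TIMPs) were examined in mouse endothelial cells with and without forced expression of superoxide dismutase 3 (SOD3), an extracellular enzyme that removes superoxide. The 10 genes, chosen by name, were Mmp2, Mmp3, Mmp9, Mmp10, Mmp13, Mmp14, Timp1, Timp2, Timp3 and Timp4. Every non-control spot whose annotation named one of them was taken, which gave 20 spots of 11 probes, of 59305 spots and 55681 probes in all. Timp2 had 2 probes, the Mmp9 probe was printed 10 times, and each of the others was printed 1 time.

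The arrays compared 1G11-mock with 1G11-SOD3 cells, transfectants of the mouse microvascular endothelial line 1G11 (strain given as C57BL/6NCrLBR). Both lines received medium conditioned by N202.1A mouse mammary tumor cells for 6 h before RNA extraction, so that no array shows cells without tumor medium. Each line was measured on 3 single-color arrays, described as independent experiments, and the sources used here do not say whether a line was 1 clone. All 1G11-mock arrays lay in one row of the slide and all 1G11-SOD3 arrays in the other, and line and slide row cannot be told apart.

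MMPs are zinc-dependent proteases that cut collagens, laminins, proteoglycans and surface proteins. Most are secreted as inactive proenzymes, while membrane types such as MMP14 stay at the cell surface. TIMPs bind to the active site of MMPs and block it, and TIMP2 also helps MMP14 to activate pro-MMP2 at the surface. In endothelium, this balance of protease and inhibitor takes part in basement membrane turnover and in vessel sprouting.

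Whether a probe was measured at all was decided by the flag with which the scanner software marks a spot as well above background. Mmp14, Timp1, Timp2 and Timp3 were well above background on all 6 arrays, with 5 probes. Mmp2, Mmp3, Mmp9, Mmp10, Mmp13 and Timp4 were so on none. Of the 6 MMPs only the membrane protease Mmp14 gave a signal above background, against 3 of the 4 TIMPs. Over the whole array, 34.2% to 43.8% of spots per array carried the flag.

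The sequences of the measured probes show what each signal reports. The probe of Mmp14, the only protease measured, and 1 Timp2 probe are printed whole. The Timp2 one crosses an exon junction, since its ends are 6.78 kb apart in the coordinates of the array annotation. A stretch of 30 bases is given for the others. The capitals in the Timp1 stretch (bases 23 to 52 of the probe) mark AATAAA, the hexamer that precedes polyadenylation, which begins at base 37. The Timp3 stretch and the stretch of the second Timp2 probe are bases 1 to 30.
Mmp14 A_52_P304128: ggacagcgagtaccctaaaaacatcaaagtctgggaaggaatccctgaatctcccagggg
Timp2 A_65_P12392: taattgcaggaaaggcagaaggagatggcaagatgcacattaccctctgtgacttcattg
Timp2 A_52_P540219: ccgtgagcgttcttgtgccgtgttgatgcc
Timp1 A_55_P1985850: ctcttagatggtgaAATAAAgaactatcag
Timp3 A_51_P463765: atagtgacttttggggatagatctgtctgg

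In the RefSeq annotation of GRCm38.p6, Mmp14 lies at chr14:54431598-54442456, Timp2 at chr11:118301061-118355411, Timp1 at chrX:20870166-20874737 and Timp3 at chr10:86300412-86349505. Timp1 lies within the interval of Syn1, Timp3 within that of Syn3 and Timp4 within that of Syn2, so that 3 of the 4 inhibitor genes are nested in synapsin genes. Mmp13, Mmp3 and Mmp10 lie near each other on chromosome 9, spanning 238 kb from 7272514 to 7510242.

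**Figure D1:**
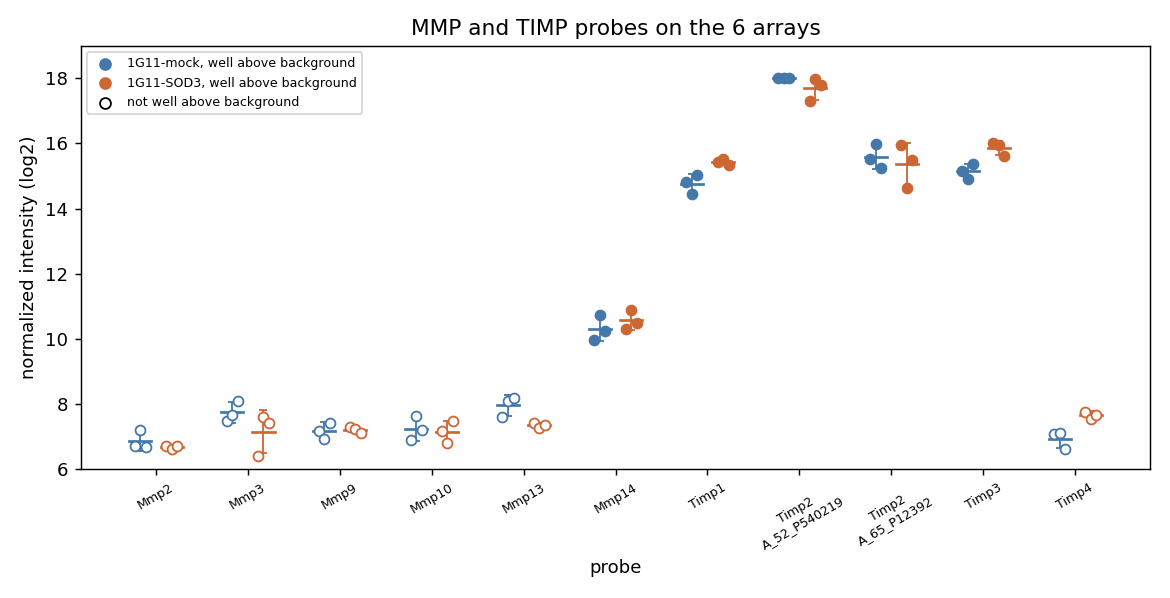
Normalized intensity (log2, vertical axis) of each probe (horizontal axis) on the 3 1G11-mock (blue) and 3 1G11-SOD3 arrays (orange), with the mean and SD as bars. Filled points are well above background and open points are not. The 5 filled probes lie between 9.97 and 18.02, and the 6 open ones between 6.38 and 8.19.

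Values are log2 intensities after background correction and quantile normalization, and a difference is the 1G11-SOD3 mean minus the 1G11-mock mean. A probe was called if it differed by more than 2-fold with an adjusted p under 0.05 (limma, Benjamini-Hochberg over all 55681 probes). None of the 11 probes was called in this fit, against 2.93% of all probes (1.87% higher and 1.06% lower) and 8.05% of the 19796 probes well above background on all arrays of at least 1 line. At an unadjusted limma p under 0.05 there were 4, of which 2 (Timp1 and Timp3) were measured above background. An exact permutation test of 3 against 3 arrays (2-sided) cannot go below 0.1, which Timp1, Timp3 and the Timp2 probe A_52_P540219 reached. Those 3 of the 5 measured probes had no overlap between the lines, a pattern seen in 33.5% of the measured probes of the array, of which 17.4% were lower and 16.1% higher in 1G11-SOD3. The median difference of the 5 probes was 0.26, against -0.06 for all 19796 measured probes.

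Timp1, a secreted inhibitor with broad activity toward soluble MMPs, stood higher on every 1G11-SOD3 array. The 1G11-mock arrays read 14.81, 14.44 and 15.04, and the 1G11-SOD3 arrays 15.42, 15.51 and 15.34. All 3 values of 1G11-SOD3 lay above the highest of 1G11-mock, and they were closer together (SD 0.087 against 0.31). The difference was 0.66 on the log2 scale, or 1.58-fold (95% confidence interval 1.10 to 2.26), with an adjusted limma p of 0.21, so that Timp1 did not pass the test.

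Timp3, the inhibitor that binds to extracellular matrix and also blocks several ADAM and ADAMTS proteases, had a similar pattern. It read 15.17, 14.92 and 15.38 in 1G11-mock and 16.03, 15.96 and 15.61 in 1G11-SOD3. The lowest array of 1G11-SOD3 exceeded the highest of 1G11-mock by less than the range within either line. The difference was 0.71, or 1.64-fold (95% confidence interval 1.14 to 2.34), with an adjusted limma p of 0.17, and it passed in none of the 20 alternative settings.

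Timp2 was the brightest member, and its 2 probes gave different patterns over the arrays. Probe A_52_P540219 read 18.00, 18.02 and 18.02 in 1G11-mock and 17.29, 17.99 and 17.81 in 1G11-SOD3. It ranked 114 to 120 from the brightest of 55681 probes on the 1G11-mock arrays and 128 to 356 on the 1G11-SOD3 arrays. The groups did not overlap, but the difference of -0.32 (0.80-fold, 95% confidence interval 0.55 to 1.16) had an adjusted limma p of 0.61.

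The junction probe of Timp2, A_65_P12392, read 15.53, 15.99 and 15.24 in 1G11-mock and 15.96, 14.64 and 15.48 in 1G11-SOD3. The groups overlapped, and replicate 1 of 1G11-SOD3, the lowest of its line on the other probe, was the highest of its line on this one. The difference of -0.23 (0.85-fold, 95% confidence interval 0.51 to 1.42, adjusted limma p of 0.82) became 0.13 without 1G11-SOD3 replicate 2, so its direction rested on that array. With 75th percentile scaling of the corrected intensities and of the processed signal, the median of all probes moved to -0.34 and -0.52, whereas that of the measured probes was -0.02 and 0.04. Relative to that median the differences of A_52_P540219 turned to 0.03 and 0.46 and those of A_65_P12392 to 0.24 and 0.06, while relative to the measured probes all 4 stayed below 0.

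Mmp14, the membrane protease whose surface complex with TIMP2 serves as the receptor of pro-MMP2, was the dimmest measured member. It read 9.97, 10.73 and 10.22 in 1G11-mock and 10.30, 10.89 and 10.49 in 1G11-SOD3. The groups overlapped, although within same-numbered arrays 1G11-SOD3 was higher each time (by 0.33, 0.17 and 0.27). The difference was 0.26, or 1.19-fold (95% confidence interval 0.79 to 1.80), with an adjusted limma p of 0.73 (0.62 with the replicate number as a block), and the interval leaves room for changes of either sign.

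Spot position also bore on the measurements. A block in the middle of the array, with 6606 of the 59305 spots, was dim in 1G11-mock. On probes printed 10 times, spots in that block were dimmer than copies elsewhere by a median of 0.82, 1.21 and 2.54 (log2) on the 1G11-mock arrays, whereas the median on the 1G11-SOD3 arrays lay between -0.21 and 0.22. All 5 measured probes of the MMPs and TIMPs lay outside the middle. At their places, a surface fitted to the neighboring spots differed by -0.43 to -0.05 (log2) between the lines, being lower in 1G11-SOD3.

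Taking this surface off each array before normalization brought Timp1 to the edge of a call. Its values became 14.80, 14.34 and 14.73 in 1G11-mock and 15.51, 15.55 and 15.58 in 1G11-SOD3. The difference rose to 0.92 (1.90-fold), with an adjusted limma p of 0.045, which passed the p threshold and missed the 2-fold one. Under the same adjustment 4.30% of measured probes were called. With the scanner software's processed signal, which called 2.16% of all probes higher and 17.8% lower, Timp1 was called higher, at 1.11 and an adjusted limma p of 0.033. On the quantile-normalized values without position adjustment, leaving out any 1 array gave a Timp1 difference between 0.49 and 0.79. The adjusted limma p-values were between 0.16 and 0.49. Arrays were not left out in turn for the position-adjusted values or the processed signal.

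The adjustment left Timp3 at 0.65 (adjusted limma p of 0.13) and raised Mmp14 to 0.42 (adjusted limma p of 0.33). The Timp2 probe A_52_P540219 moved from -0.32 to -0.03, and its groups overlapped after the adjustment. A_65_P12392 stayed at -0.23.

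**Figure D2:**
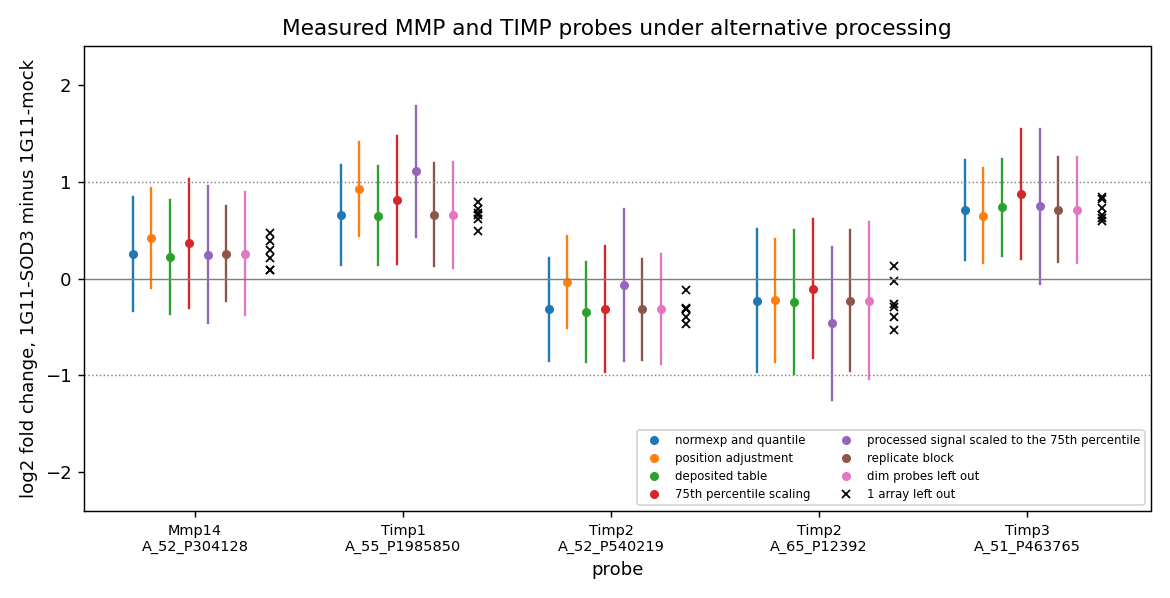
Log2 fold change of each measured probe (1G11-SOD3 minus 1G11-mock, vertical axis) with its 95% confidence interval under 7 ways of processing (colors), and without each array in turn (crosses); the dotted lines mark 2-fold. The points of Timp1 and Timp3 lie above 0 throughout, and Timp1 passes the 2-fold line only with the processed signal, at 1.11.

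The secreted MMPs gave no measurement on which a fold change could rest. The gelatinases Mmp2 and Mmp9, which cut denatured collagen and type IV collagen, the stromelysins Mmp3 and Mmp10 and the collagenase Mmp13 stayed below the background criterion on all 6 arrays. The same held for Timp4. Their log2 values lay between 6.38 and 8.19, and those of the 30261 probes that were well above background on no array had a median of 7.11, with 7.77 as the 95th percentile. At this sensitivity a transcript below the detection limit and an absent transcript cannot be told apart.

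Mmp13 had the highest of these values, at 7.58, 8.09 and 8.19 in 1G11-mock and 7.41, 7.26 and 7.33 in 1G11-SOD3, and the lines did not overlap. Timp4 read 7.07, 7.10 and 6.60 in 1G11-mock and 7.75, 7.52 and 7.67 in 1G11-SOD3, also without overlap. Among all probes, dim ones included, 20.6% had no overlap, a share raised by the measured probes (33.5%). The share among dim probes alone was lower and was not computed. Timp4 had the lowest adjusted limma p of the members (0.15). It passed both thresholds with the position adjustment, which called 1.08% of all probes higher, and Mmp13 and Mmp9 did so in the lower direction with the processed signal, which called 17.8% of all probes lower, but no fold is given for a probe that was below background in both lines.

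The Mmp9 probe was printed in 3 places within the middle of the array and in 7 elsewhere. None of its 18 readings in the middle and none of the 42 elsewhere was well above background. The readings ranged from 6.63 to 7.74 in the middle and from 6.48 to 7.95 elsewhere. The difference between the lines ran from -0.13 to 0.23 over the copies in the middle and from -0.16 to 0.23 over the others. The middle and the rest of the array gave the same picture for this probe, which is dark in both.

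**Figure D3:**
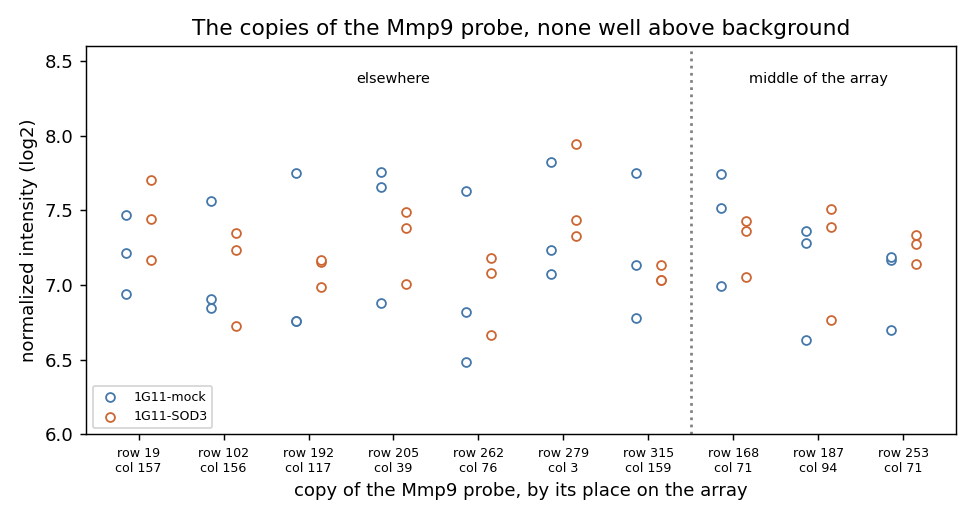
Normalized intensity (log2, vertical axis) of the 10 copies of the Mmp9 probe by place on the array (horizontal axis), with 1 point per array in each line. All 60 readings are below the background criterion, and those of the 3 copies in the middle lie within the range of the 7 elsewhere.

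The probes of Mmp13, Mmp3 and Mmp10, which lie near each other, were all dark. Their promoters are shown because they share sequence features that the choice of genes did not use. RefSeq windows of 250 bases before to 50 bases after the start were found for 8 of the 10 genes. Mmp2 and Mmp9 had no window and were not searched. The AP-1 motif (TGAGTCA or TGACTCA, either strand) occurred in 3 of the 8, Mmp3, Mmp10 and Mmp13, against 5.20% of all 32851 windows. TATAAA (either strand) occurred in the same 3, against 13.6% of all windows. These 3 genes lie within the same 238 kb, and they are not independent counts to set against those shares. The NF-κB consensus occurred in none of the 8 and in 8.46% of all. The 100 bases before each start are given on the plus strand, with both motifs in capitals.
Mmp13 chr9:7272414-7272513: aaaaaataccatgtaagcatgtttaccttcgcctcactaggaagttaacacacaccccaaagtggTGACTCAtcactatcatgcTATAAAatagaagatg
Mmp3 chr9:7445722-7445821: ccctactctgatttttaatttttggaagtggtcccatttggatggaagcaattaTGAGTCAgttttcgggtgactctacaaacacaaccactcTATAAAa
Mmp10 chr9:7502242-7502341: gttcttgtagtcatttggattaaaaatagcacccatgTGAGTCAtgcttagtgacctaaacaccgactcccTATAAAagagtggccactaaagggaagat
The AP-1 motif began 35 bases before the start in Mmp13, 46 in Mmp3 and 63 in Mmp10. A match describes the letters and not the binding of a factor.

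The other MMPs were as sparsely detected as the 6 above. Of 17 further MMP genes with 23 probes, only Mmp11, which furin activates inside the cell, was measured in either line. Its 2 probes differed by -0.03 and -0.57, with adjusted limma p-values of 0.97 and 0.47, and neither passed. Mmp7 and 1 of 2 probes of Mmp27 passed in the lower direction only after the position adjustment and with the processed signal, and both were below background on all arrays and lay in the middle, where that adjustment also takes the surface off dim spots.

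The related ADAM and ADAMTS proteases gave more signal, with 11 of 20 genes measured. Of their 13 measured probes 3 were called higher (Adamts1, Adamts2 and Adamts5) and none lower, and the median difference was 0.39. Measured means above background on all arrays of at least 1 line. Probes of Adamts4 and Adam8, Adamts5 probe A_55_P1970826 and the second Adamts2 probe met this only through 1G11-SOD3. Their differences were all above 0 (0.82, 0.17, 1.22 and 1.11), so the median and the count of higher calls depend partly on that criterion. Of all measured probes, 5.19% were called higher and 2.86% lower. The list was written with earlier results of these data known, so its count is no independent test against these shares.

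Adamts1, which cleaves versican and aggrecan and is itself inhibited by TIMP3, read 10.58, 9.75 and 10.35 in 1G11-mock and 12.36, 13.10 and 12.53 in 1G11-SOD3. The groups lay far apart. It rose 5.42-fold (95% confidence interval 3.50 to 8.39, adjusted limma p of 0.0012), and the call held in all 20 alternatives.

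Adamts2, which removes the amino propeptide of fibrillar procollagens, read 12.42, 11.53 and 10.80 in 1G11-mock and 14.55, 14.29 and 13.82 in 1G11-SOD3 on probe A_51_P227222. It rose 6.22-fold (95% confidence interval 3.54 to 10.9, adjusted limma p of 0.0033), and the call again held in all 20 alternatives. This probe lay outside the middle, at row 269 and column 93, where the fitted surface was 0.57 (log2) higher in 1G11-SOD3. With the position adjustment the rise was smaller, at 3.96-fold (adjusted limma p of 0.0055). The second probe of Adamts2 was below background in 1G11-mock and above it in 1G11-SOD3, with a mean at least 1.27-fold higher. The adjusted limma p was 0.053, and 0.027 with the replicate number as a block. It was 0.033 with the position adjustment, which is meaningful only for probes above background. A bound given as "at least" takes, on each 1G11-mock array, the larger of the probe's own value and the lowest signal of a probe well above background. It sets the mean of these against the 1G11-SOD3 mean and leaves out sampling error.

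The aggrecanases Adamts4 and Adamts5 were less settled. Adamts4 was above background only in 1G11-SOD3, at least 1.71-fold higher, with an adjusted limma p of 0.17. It was called with the position adjustment (adjusted limma p of 0.014), which is meaningful only for probes above background, as Adamts4 was not in 1G11-mock. Adamts5 rose 2.33-fold on probe A_55_P1970826 (adjusted limma p of 0.025). That probe was well above background on 3 1G11-SOD3 arrays but on only 1 1G11-mock array, so its fold rests partly on 1G11-mock values below the criterion. The other Adamts5 probe, above background on all arrays, differed by 1.31-fold (adjusted limma p of 0.52). The call on A_55_P1970826 was lost with the position adjustment (0.060), with 75th percentile scaling (0.0519) and without background correction (0.93 on the log2 scale, below 2-fold). Its adjusted limma p was 0.0987 without 1G11-mock replicate 2, 0.0752 without 1G11-mock replicate 3, and 0.0794, 0.0567 and 0.110 without 1G11-SOD3 replicates 1, 2 and 3.

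Among 18 genes that activate, bind or clear MMPs, 11 were measured, with 14 probes. Probes of 4 genes rose and a probe of 1 fell, against 5.19% of all measured probes called higher and 2.86% lower, and with the position adjustment 3 rose and 0 fell. This list too was written with earlier results of these data known, so the counts are no independent test. Among the genes that rose, Pcsk6 counted as measured only through 1G11-SOD3. The matricellular protein Thbs1, which binds pro-MMP2 and pro-MMP9, read 11.57, 11.62 and 11.86 in 1G11-mock and 12.93, 12.56 and 13.43 in 1G11-SOD3. It rose 2.45-fold (95% confidence interval 1.64 to 3.65, adjusted limma p of 0.023). The adjusted limma p was 0.0602 and 0.0951 without 1G11-mock replicates 1 and 2, 0.0762 and 0.0816 without 1G11-SOD3 replicates 1 and 3, and 0.0516 at a normexp offset of 16.

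The proprotein convertase Pcsk6, a relative of furin, was below background in 1G11-mock and at least 2.03-fold higher in 1G11-SOD3 (adjusted limma p of 0.016). The p was 0.0698 without 1G11-mock replicate 2 and 0.0762 and 0.0690 without 1G11-SOD3 replicates 1 and 2. The call was also lost with 75th percentile scaling (0.0548) and without background correction (0.95 on the log2 scale, below 2-fold). Sparc, a collagen-binding glycoprotein, rose 2.54-fold on probe A_55_P2046807 (adjusted limma p of 0.024) but differed by 0.05 (log2) on its brighter probe A_55_P2046812 (adjusted limma p of 0.96), so that the probes disagreed. Its p was 0.0810 without 1G11-mock replicate 2, 0.0804, 0.0856 and 0.0694 without 1G11-SOD3 replicates 1, 2 and 3, and 0.0507 at an offset of 16.

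Itgb3, the integrin chain that docks MMP2 at the surface, rose 2.56-fold (adjusted limma p of 0.029) on a probe in the middle of the array. With the position adjustment this became 0.72 on the log2 scale (adjusted limma p of 0.14), and it was 0.67 with the processed signal (0.123). The p was 0.0574 at an offset of 16, 0.0901 and 0.0855 without 1G11-mock replicates 2 and 3, and 0.0641, 0.0581 and 0.116 without 1G11-SOD3 replicates 1, 2 and 3. The other Itgb3 probe, A_66_P126293, also lay in the middle and was above background on only 1 array, of 1G11-SOD3. It differed by 0.14 on the log2 scale (adjusted limma p of 0.86).

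Lrp1, the endocytic receptor that clears MMP and TIMP complexes, read 15.94, 16.20 and 15.80 in 1G11-mock and 15.05, 14.51 and 15.01 in 1G11-SOD3. It fell by 1.13 on the log2 scale (adjusted limma p of 0.030), and the difference was -1.14 with the position adjustment (adjusted limma p of 0.057). The call was also lost at an offset of 16 (0.0729), with the processed signal (-0.84, 0.101), with 75th percentile scaling (-0.94, 0.0848) and without the middle of the array (0.0658). The p was 0.0573 and 0.124 without 1G11-mock replicates 1 and 2, and 0.0698, 0.152 and 0.0722 without 1G11-SOD3 replicates 1, 2 and 3. Lcn2, the lipocalin that binds MMP9, was chosen after its values were seen. It differed by -2.66 (adjusted limma p of 0.062) and passed with the replicate number as a block (adjusted limma p of 0.022).

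**Figure D4:**
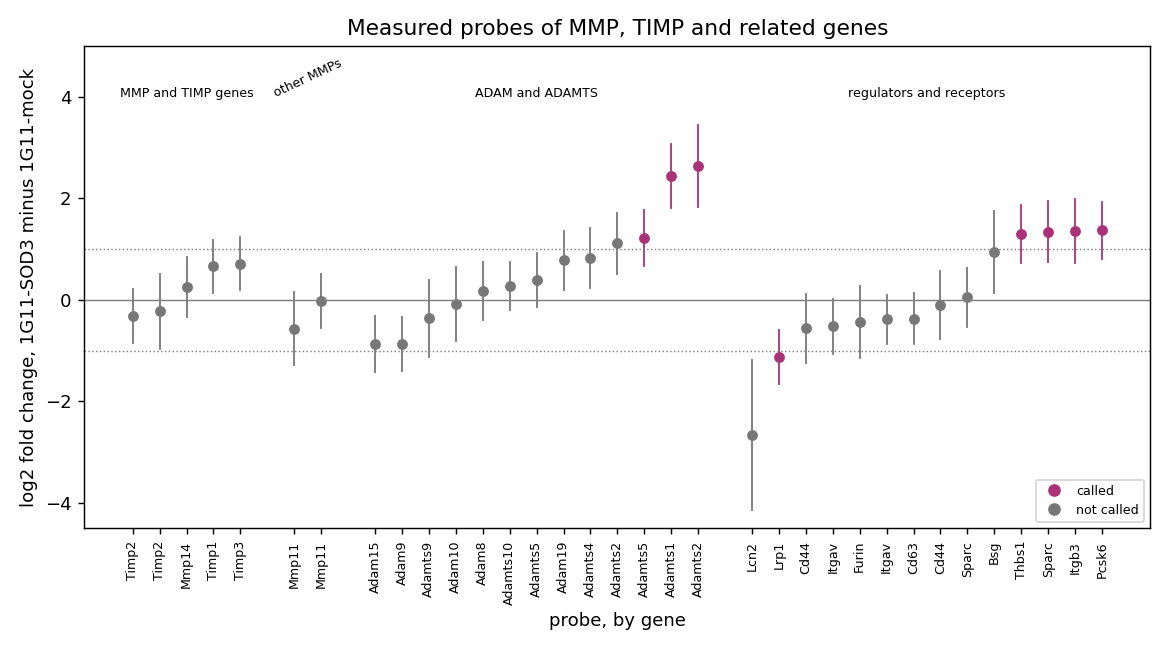
Log2 fold change (1G11-SOD3 minus 1G11-mock, vertical axis) with its 95% confidence interval for each measured probe (horizontal axis, by gene and list), purple where called; the dotted lines mark 2-fold. The 5 MMP and TIMP probes lie between -0.32 and 0.71 and are not called, while Adamts1 and Adamts2 reach 2.44 and 2.64.

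By a rule on likeness, the 3 genes whose log2 intensity followed Timp4 most closely over the 6 arrays were Pebp1 (Pearson r of 0.999), Khdc4 (0.998) and Mfn1 (0.998). They were drawn from 19796 probes, and the Timp4 values they follow are below background. For Timp3, chosen after its values were seen as the measured member with the lowest adjusted p, they were Snrpa1 (0.997), Tm7sf2 (0.993) and Gpr153 (0.993).

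Sod3 itself, on a probe in the middle of the array, read 13.61, 12.66 and 9.86 in 1G11-mock and 16.37, 16.30 and 16.26 in 1G11-SOD3, in the direction of the labels. It was 19.3-fold higher (adjusted limma p of 0.0076) and 6.76-fold with the position adjustment. Of 12 endothelial markers, Vwf, Kdr and Eng were above background on all arrays, and Tie1, Cdh5, Emcn, Erg, Robo4 and Tek on none. The summed level of the list (log2) lay between 14.34 and 14.87 for 1G11-mock and between 13.83 and 14.07 for 1G11-SOD3, with 1 marker called higher (Egfl7) and 1 lower (Vwf). That of 8 fibroblast and mural markers lay between 16.18 and 16.21 for 1G11-mock and between 17.01 and 18.48 for 1G11-SOD3, with 4 called higher, among them the procollagens that Adamts2 processes. The part of these differences in the results for Timp1, Timp3 and the ADAMTS genes was not tested, and fewer cells of a type and less RNA per cell cannot be told apart in bulk RNA. Epithelial markers summed to 16.04 to 16.77 for 1G11-mock and 15.78 to 16.46 for 1G11-SOD3. Of these 6 markers 1 was called higher and 0 lower, with Krt19 above background on all arrays and Krt18 and Epcam on none. Leukocyte markers summed to 14.28 to 14.62 and 14.30 to 14.65 with 0 called, with Cd14, Csf1r and Itgam above background on all arrays and Ptprc, Adgre1, Cd68 and S100a8 on none. Over all 55681 probes 1041 were called higher and 588 lower, and with the processed signal 1200 and 9918.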

How the data were processed

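Total RNA of 3 1G11-mock and 3 1G11-SOD3 cultures was hybridized to 6 single-color Agilent arrays. The authors deposited unnormalized spot intensity values from Agilent Feature Extraction 10.7.3.1 together with log2 values corrected by normexp and normalized by quantiles, which served as an alternative. The array annotation does not name the genome build of its coordinates, and those are not printed.

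Mean intensities of the 59305 non-control spots were background corrected (normexp, offset of 50), log2 transformed and brought to common quantiles (limma 3.58.1, R 4.3.3). Outlier spots were dropped, and copies of a probe were averaged. A probe counted as well above background on an array if at least 50% of its copies carried the scanner's flag. Differences between the lines were fitted in limma with moderated (empirical Bayes) variances. The number of arrays limits the precision, and no spot was saturated. The position adjustment took a moving median (12 rows and 6 columns to each side) of each array's deviation from the mean of the 6 off before normalization. It lowered the SD of the difference among copies of probes printed 10 times, which the surface did not use, from 0.67 to 0.25, and it is meaningful only for probes above background.

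Same-numbered arrays of the labels deviated together (correlations of 0.14 to 0.20 over measured probes, -0.19 to 0.05 for other pairs), so a fit with the number as a block was run too. The other alternatives were the background correction, offset, pixel statistic, processed signal, scaling, control, dim and outlier spots, variance trend, the deposited table, the middle of the array left out and each array left out. Members and lists were chosen with earlier results of these data known. Named are all probes of the members, genes of the related lists called in the main fit or with the position adjustment, the genes most like the member with the lowest adjusted p, Sod3 and marker sums. The procedure was tested on simulated data. Promoter sequences and gene positions are RefSeq's (GRCm38.p6), and figures were drawn with Python 3.11.15 and matplotlib 3.10.9.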

Additional observations from a re-analysis of the deposited data

How the results depend on the processing

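No member probe was called without any 1 array or with the replicate number as a block (0 higher and 0 lower), but the processed signal, scaled by its 75th percentile, called 1 higher (Timp1, 1.11 on the log2 scale) and 2 lower (Mmp9 and Mmp13, both below background), and the position adjustment called 1 higher (Timp4, below background). The Timp2 probe A_65_P12392 ranged from -0.53 to 0.13 when 1 array was left out, Timp1 from 0.49 to 0.79, Timp3 from 0.59 to 0.84, Mmp14 from 0.09 to 0.47 and the Timp2 probe A_52_P540219 from -0.47 to -0.12. Over the whole array, the count called higher was 655 without background correction, 412 without the middle, 599 with the position adjustment and 474 to 1272 without 1 array (505 without 1G11-mock replicate 2, 474 and 506 without 1G11-SOD3 replicates 1 and 3). The count called lower was 375 at an offset of 16, 9918 with the processed signal, 1041 with 75th percentile scaling, 356 without the middle, 1469 with the position adjustment and 278 to 519 without 1 array. Of related genes, 7 probes were called higher, 4 at an offset of 16 and 2 to 6 without 1 array. In the lower direction 1 (Lrp1) was called, 0 at an offset of 16 or without the middle, 8 with the processed signal and 0 to 2 without 1 array. With the block 2 were called lower (Lcn2 in addition). The position adjustment also called 2 lower, but these were probes of Mmp7 and Mmp27, both below background, and Lrp1 was not called. The block moved no other count by more than 1.5 times. The smallest difference that 3 arrays per line can detect was not determined, and for 6 of the 10 genes signal over background allowed no fold change.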
